A study of Mus musculus with 21 samples.

Results

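The genes described here act in excitatory, glutamate-using transmission: the vesicular glutamate transporters Slc17a6 and Slc17a7, the AMPA receptor subunits Gria1, Gria2, Gria3 and Gria4, the NMDA receptor subunits Grin1 and Grin2b, and the kainate receptor subunits Grik2 and Grik3. They were chosen by name, and every probe set annotated to 1 of them was read. Of the 10 genes, 9 had at least 1 probe set, 21 probe sets in all, out of 18193 genes named on the array. Grin1, the subunit that NMDA receptors require, was not named by any single-gene probe set and has no value here. All 9 passed the filter on dim probe sets and entered the test of 13850 genes. Of their 21 probe sets 19 passed, the exceptions being 2 of the 3 for Gria4.

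The tissue was the rostral part of the cerebral cortex at embryonic day 14, taken from mice that carried 1 of 3 mutations of Pax6, each set against control littermates. Sey, the Small-eye allele, had 4 mutant and 3 control arrays, all C57BL/6J x DBA/2J (B6D2F1). Leca4 had 3 mutant and 4 control arrays, and Leca2 had 4 mutant and 3 control arrays, both lines on the strain 129 S6. The animals were untreated, the mutations are present in every cell of the embryo, and the labels do not state whether mutants were homozygous. Each array is labelled a biological replicate, without saying whether embryos were pooled, so p-values measure the spread between these samples. Values are log2 RMA signals, in which 1 unit is a doubling, and an error after ± is the standard error of the fit unless SD is written.

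Glutamate is loaded into synaptic vesicles by the vesicular transporters, which therefore mark excitatory neurons, and Slc17a6 precedes Slc17a7 in the developing cortex. Released glutamate opens AMPA and kainate receptors, which carry fast current, and NMDA receptors, which also let calcium in. Pax6 is a transcription factor of cortical radial glia that promotes the production of glutamatergic neurons and restrains ventral, GABAergic fates.

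Pairs of arrays of a group correlated between 0.9931 and 0.9972 (Pearson's r over probe sets). The labels give no sex. Read from Xist and Y-linked genes, males made up 1 of the 4 Sey mutants and all 3 Sey controls, 2 of the 3 Leca4 mutants and 3 of the 4 Leca4 controls, and 2 of the 4 Leca2 mutants and none of the 3 Leca2 controls. The 3 lines appear to have been normalized apart, so levels are compared only within a line, except in the setting that pools the 129 S6 controls. Leca2 control replicate 1 stood apart for these genes, being the lowest of its group for 8 of the 9. The Pax6 transcript itself ranged from 10.94 to 11.34 in Sey mutants against 10.55 to 10.64 in their controls, from 11.86 to 12.20 in Leca4 mutants against 11.41 to 11.68 in Leca4 controls, and from 12.04 to 12.26 in Leca2 mutants against 11.12 to 11.31 in Leca2 controls. It was therefore higher in all 3 mutants, and this level does not show which allele an array carried.

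In the Sey cortex, 4 of the 9 measured genes changed, in opposite directions. Slc17a6 and Gria3 fell, and Gria4 and Grik2 rose. In the Leca4 and Leca2 cortex none of the 9 passed the threshold, an adjusted p under 0.05 after limma and Benjamini-Hochberg adjustment over all genes tested. Of all genes tested, 20.2% were called in Sey, 10.7% as higher and 9.41% as lower, so that 2 of 9 in each direction was read against that broad background. Every Sey mutant array lay below every control for 4 of the 9 (14.5% of all genes) and above for 2 (16.5%). The called share was 5.62% in Leca4 (3.39% higher, 2.24% lower) and 0.477% in Leca2 (0.173% higher, 0.303% lower). The median log2 change of the 9 genes was -0.33 in Sey, 0.11 in Leca4 and -0.03 in Leca2, and over all genes tested it was within 0.01 of 0 in each line. At an unadjusted p under 0.05, Sey had the same count of 4, against 31.7% of all genes, Leca4 had 2 of the 9 (Gria2 and Grik2), against 18.3% of all genes, and Leca2 had 1 (Slc17a7), against 6.84%.

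**Figure D1:**
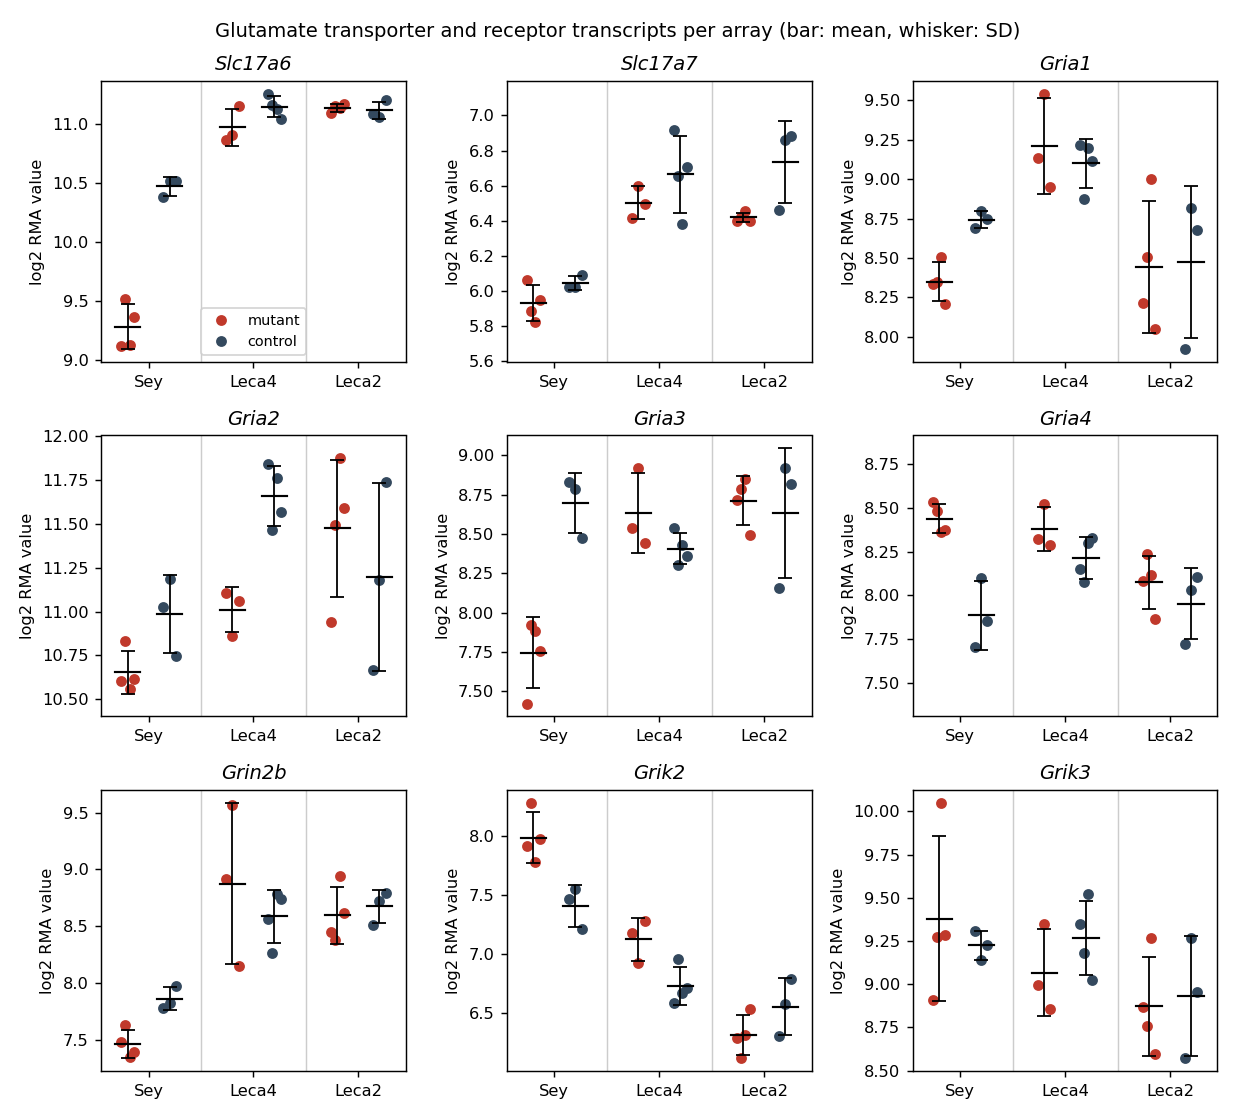
Log2 RMA value of the representative probe set of each of the 9 measured genes (vertical axis, scaled per gene) in every array, for mutants (red, left) and littermate controls (dark, right) of the Sey, Leca4 and Leca2 lines, with the group mean as a bar and the SD as a whisker. Slc17a6 and Gria3 in Sey mutants lie below all Sey controls, and Gria4 and Grik2 lie above them.

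Slc17a6 encodes the vesicular transporter of early excitatory neurons and showed the largest change of the 9. Its values were 9.12, 9.52, 9.13 and 9.37 in the Sey mutants, against 10.38, 10.51 and 10.52 in the Sey controls. The mutant arrays thus lay well below every control, with no overlap. The change was -1.18 ± 0.09 (95% interval from -1.37 to -0.998, adjusted p = 1.54e-08), a level 2.27-fold lower in the mutants. The other probe set of Slc17a6 gave -1.05 ± 0.13 (adjusted p = 1.34e-05 over all probe sets). In Leca4 the values were 10.86, 10.90 and 11.15 in mutants against 11.25, 11.16, 11.12 and 11.04 in controls, which overlapped (-0.17 ± 0.09, adjusted p = 0.306). In Leca2 they were 11.09, 11.15, 11.13 and 11.17 in mutants against 11.08, 11.06 and 11.20 in controls. These nearly coincided, with a change of 0.02 ± 0.09 and a 95% interval from -0.16 to 0.21.

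The probe set of Slc17a7, the transporter of more mature cortical excitatory neurons, was dim in all groups, at 5.82 to 6.92 with a filter level between 5.37 and 5.6. It measured 6.06, 5.89, 5.82 and 5.95 in Sey mutants and 6.02, 6.02 and 6.09 in Sey controls, which overlapped (-0.11 ± 0.10, adjusted p = 0.495). In Leca2 the mutants had 6.40, 6.42, 6.45 and 6.40 against 6.46, 6.86 and 6.88 in the controls. All 4 mutants were below all controls, though by little at control replicate 1. Among all genes 3.34% showed such a complete separation downwards in Leca2, and the change of -0.32 ± 0.10 did not pass the threshold (adjusted p = 0.331). In Leca4 the change was -0.16 ± 0.10 (adjusted p = 0.46).

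Promoters are shown for the genes that changed in Sey, where a window was available, so that the sequence before each start can be seen beside its direction of change. Windows of 250 bases before an annotated start came from RefSeq on GRCm38.p6 and matched 7 of the 10 genes. Gria1, Gria3 and Grin2b had no entry. Capitals mark 2 searched motifs, the E-box CANNTG bound by proneural basic helix-loop-helix factors and the homeodomain core TAATTA, both of which read the same on either strand and neither of which can overlap the other. Slc17a6 lies on chromosome 7 (51621830 to 51671126, plus strand) with a window before each of 2 annotated starts, chr7:51621580-51621829 and chr7:51624387-51624636. Gria4 lies on chromosome 9 (4417893 to 4796234, minus strand, window chr9:4796235-4796484), and Grik2 on chromosome 10 (49093680 to 49790161, minus strand, window chr10:49788755-49789004).
Slc17a6 first start: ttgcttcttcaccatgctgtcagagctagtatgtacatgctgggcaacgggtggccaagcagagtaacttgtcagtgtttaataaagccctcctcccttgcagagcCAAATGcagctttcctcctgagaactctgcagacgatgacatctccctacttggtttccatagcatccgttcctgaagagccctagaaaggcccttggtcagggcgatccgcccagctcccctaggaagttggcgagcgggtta
Slc17a6 second start: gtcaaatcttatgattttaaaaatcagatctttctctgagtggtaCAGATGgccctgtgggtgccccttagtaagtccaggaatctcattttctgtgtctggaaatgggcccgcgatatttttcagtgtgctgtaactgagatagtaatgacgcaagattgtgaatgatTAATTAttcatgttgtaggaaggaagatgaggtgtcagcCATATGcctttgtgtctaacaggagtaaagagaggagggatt
Gria4: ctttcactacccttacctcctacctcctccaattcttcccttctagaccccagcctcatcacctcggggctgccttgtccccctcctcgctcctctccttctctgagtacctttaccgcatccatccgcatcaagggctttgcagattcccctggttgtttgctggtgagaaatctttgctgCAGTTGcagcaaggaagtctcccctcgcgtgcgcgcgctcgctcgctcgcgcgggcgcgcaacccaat
Grik2: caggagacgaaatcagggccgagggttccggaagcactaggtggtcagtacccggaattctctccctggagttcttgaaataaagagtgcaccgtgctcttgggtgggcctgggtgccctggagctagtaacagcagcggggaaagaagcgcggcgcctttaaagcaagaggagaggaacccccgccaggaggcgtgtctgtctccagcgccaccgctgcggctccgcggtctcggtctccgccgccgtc

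The windows of Slc17a6 held 1 and 2 E-boxes, that of Gria4 held 1 and that of Grik2 none. Of 32851 windows of this length in the table, 66.2% held an E-box, so these counts are a description of the letters. The second Slc17a6 window held 1 TAATTA, which 4.84% of all windows hold, and 1 of its E-boxes read CAGATG, found in 14.4%. No match says that a factor binds there.

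Among the AMPA receptor subunits, Gria3 fell and Gria4 rose in the Sey mutants. Gria3, on the X chromosome (41400819 to 41678601), measured 7.42, 7.92, 7.88 and 7.76 in Sey mutants against 8.83, 8.79 and 8.48 in controls. The highest mutant stood below the lowest control, and the change was -0.95 ± 0.16 (adjusted p = 0.000266), a level 1.93-fold lower in mutants. Its other probe set gave -0.64 ± 0.14 (adjusted p = 0.00532 over all probe sets). Gria3 did not pass in Leca4, at 8.54, 8.92 and 8.44 in mutants against 8.54, 8.30, 8.43 and 8.36 in controls (0.23 ± 0.16, adjusted p = 0.518). In Leca2 it had 8.71, 8.79, 8.85 and 8.49 in mutants against 8.16, 8.92 and 8.82 in controls (0.08 ± 0.16). Both sets of arrays overlapped.

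Gria4 measured 8.53, 8.48, 8.36 and 8.37 in Sey mutants against 7.71, 8.10 and 7.85 in controls. Every mutant lay above every control, by 0.55 ± 0.11 (adjusted p = 0.000853), or 1.47-fold. Its remaining probe sets were below the filter. They gave 0.47 ± 0.15 (adjusted p = 0.0652) and -0.08 ± 0.10 (adjusted p = 0.756), so the rise rests on 1 probe set. The change of Gria4 was 0.16 ± 0.11 in Leca4 (adjusted p = 0.464) and 0.12 ± 0.11 in Leca2 (adjusted p = 0.991), with overlapping arrays in both lines.

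Gria1 measured 8.34, 8.35, 8.51 and 8.21 in Sey mutants against 8.69, 8.79 and 8.75 in controls. The arrays did not overlap, but the change of -0.39 ± 0.21 did not pass (adjusted p = 0.2). The model pools the spread over all 6 groups, and Gria1 ranged from 7.92 to 8.82 among the Leca2 controls. With only the Sey arrays in the fit, Gria1 passed (adjusted p = 0.00681). In Leca4 its change was 0.11 ± 0.21 and in Leca2 -0.03 ± 0.21, with overlap in both.

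Gria2 encodes the subunit that makes AMPA receptors impermeable to calcium once its transcript is edited. It measured 11.11, 10.86 and 11.06 in Leca4 mutants against 11.84, 11.47, 11.76 and 11.56 in Leca4 controls. All mutants were below all controls, a separation that 7.03% of genes showed in Leca4, and the change was -0.65 ± 0.21 (adjusted p = 0.0751). Its other probe sets gave -0.50 ± 0.25 and -0.58 ± 0.35. Gria2 passed with only the Leca4 arrays in the fit (adjusted p = 0.019), and also without Leca2 control replicate 1, Leca2 control replicate 3 or Leca2 mutant replicate 1 (adjusted p = 0.0356, 0.0338 and 0.0397), arrays that bear on it only through the pooled spread. In Sey it measured 10.61, 10.83, 10.56 and 10.62 in mutants against 11.03, 11.19 and 10.75 in controls, which overlapped (-0.33 ± 0.21, adjusted p = 0.288). Its other probe sets gave -0.65 ± 0.25 and -0.29 ± 0.35 in Sey (adjusted p = 0.134 and 0.735 over all probe sets). On the former, mutants at 8.70 to 9.55 lay below controls at 9.77 to 10.16, a separation that 14.5% of all genes showed in Sey. The Leca2 change of Gria2 was 0.28 ± 0.21 (adjusted p = 0.942).

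**Figure D2:**
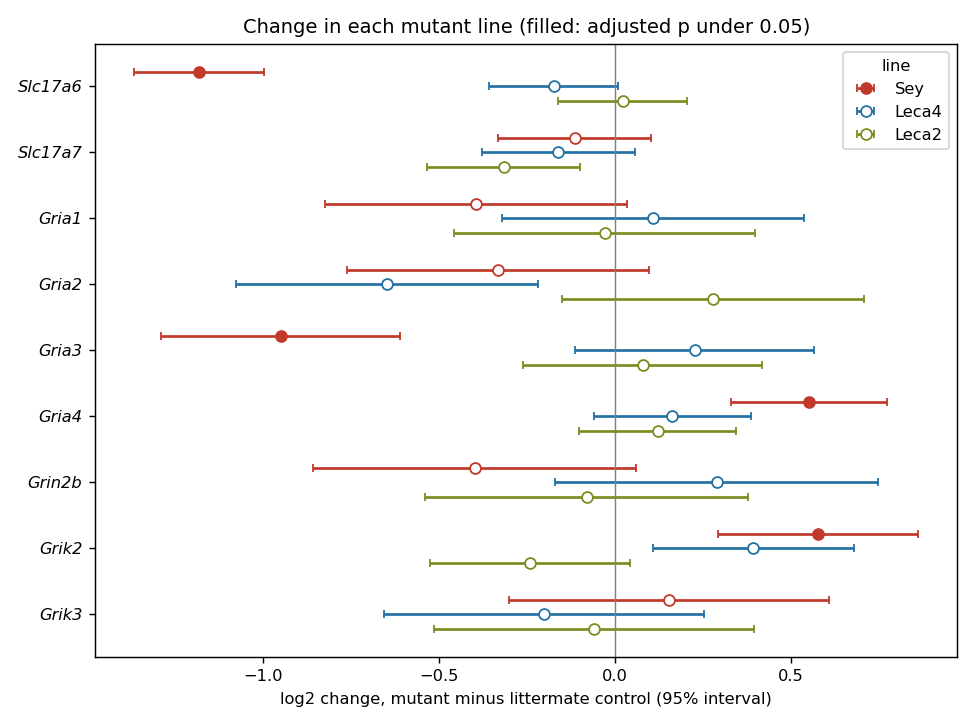
Log2 change, mutant minus littermate control (horizontal axis, with 95% interval), of the 9 measured genes in Sey (red), Leca4 (blue) and Leca2 (olive). Filled points passed an adjusted p under 0.05. Those are Slc17a6, Gria3, Gria4 and Grik2 in Sey, and none in the Leca lines.

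Grin2b, the NMDA receptor subunit that prevails in embryonic brain, measured 7.48, 7.63, 7.34 and 7.39 in Sey mutants against 7.78, 7.82 and 7.97 in controls. Mutants and controls did not overlap, yet the change of -0.40 ± 0.22 did not pass (adjusted p = 0.225), and with only the Sey arrays it did (adjusted p = 0.00977). The other 3 Grin2b probe sets gave -0.87, -0.14 and -0.10 in Sey, none of them called. In Leca4 the mutants spread widely, at 8.91, 9.57 and 8.14, against 8.56, 8.26, 8.78 and 8.74 in the controls. The change there was 0.29 ± 0.22 (adjusted p = 0.55); without mutant replicate 3 it was 0.65 (adjusted p = 0.0414), and without mutant replicate 2 it was -0.06. In Leca2 it was -0.08 ± 0.22.

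Grik2, a pore-forming kainate receptor subunit, measured 7.91, 8.28, 7.78 and 7.97 in Sey mutants against 7.46, 7.55 and 7.21 in controls. Each mutant lay above each control, with a rise of 0.58 ± 0.14 (adjusted p = 0.00441), or 1.49-fold. Its other probe set gave 0.35 ± 0.09 (adjusted p = 0.0174 over all probe sets). In Leca4 the mutants had 7.17, 6.92 and 7.27 against 6.58, 6.96, 6.67 and 6.71 in controls, which overlapped at 1 mutant array. The change of 0.39 ± 0.14 did not pass (adjusted p = 0.108), and the other probe set gave 0.08 ± 0.09 (adjusted p = 0.773 over all probe sets). Grik2 passed in Leca4 with all 7 controls of the 129 S6 strain together after quantile normalization (0.43, adjusted p = 0.0332). That setting also uses the Leca2 controls, so differences between the lines enter the change. In Leca2 it was -0.24 ± 0.14 (adjusted p = 0.841), with 6.29, 6.12, 6.32 and 6.53 in mutants against 6.30, 6.57 and 6.79 in controls.

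Grik3, the other kainate subunit, varied more within the Sey mutants than between the groups. It measured 8.91, 9.27, 10.05 and 9.29 in Sey mutants against 9.31, 9.14 and 9.23 in controls, and replicate 3 alone stood high (0.15 ± 0.22, adjusted p = 0.682). The change was -0.20 ± 0.22 in Leca4 (adjusted p = 0.7) and -0.06 ± 0.22 in Leca2, with overlap throughout.

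**Figure D3:**
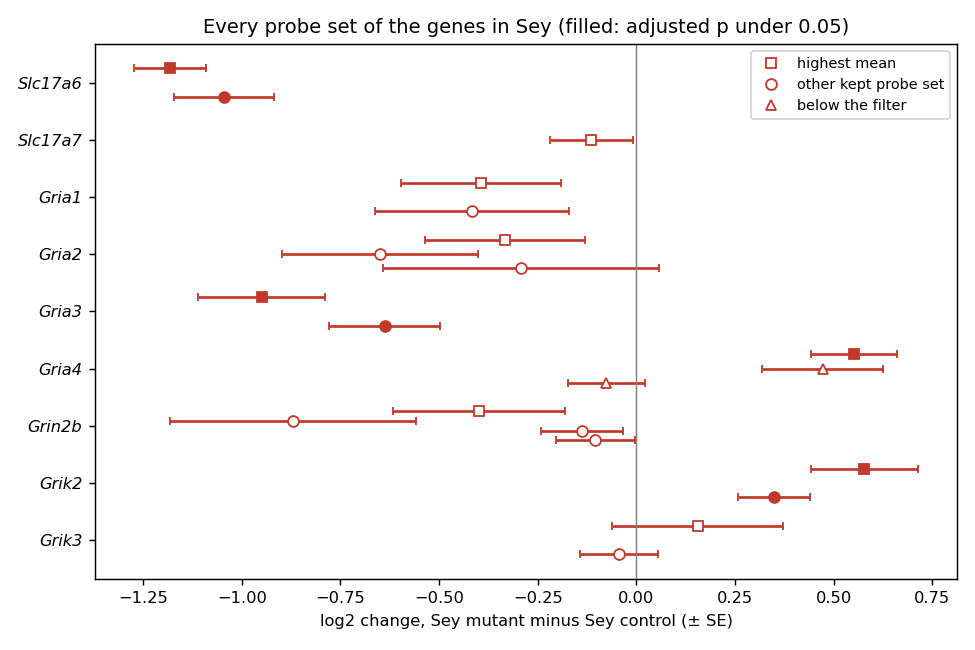
Log2 change of each of the 21 probe sets, Sey mutants minus Sey controls (horizontal axis, ± SE), by gene. Squares are the probe sets with the highest mean of their gene, circles other kept ones and triangles those below the filter, and filled symbols passed an adjusted p under 0.05 over all probe sets. Both probe sets of Slc17a6, of Gria3 and of Grik2 passed in 1 direction, and Gria4 passed by 1 of 3.

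The male Sey mutant, replicate 2, was the only mutant of the same sex as the Sey controls. Its values for Slc17a6 (9.52), Gria3 (7.92), Gria4 (8.48) and Grik2 (8.28) each lay beyond all 3 male controls. With a term for sex in the model all 4 genes kept their direction and passed.

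The changes of the lines were also compared with each other, in the same model. The log2 change of Slc17a6 in Sey differed from that in Leca4 by -1.01 ± 0.12 (adjusted p = 2.03e-05) and from that in Leca2 by -1.20 ± 0.12 (adjusted p = 4.9e-06), where neither Leca line was called. Gria3 differed as well, by -1.18 ± 0.23 from Leca4 (adjusted p = 0.00197) and by -1.03 ± 0.23 from Leca2 (adjusted p = 0.00914). Grik2 differed between Sey and Leca2, by 0.82 ± 0.19 (adjusted p = 0.0129). Thus 2 of the 9 differed between Sey and Leca4, where 12.8% of all genes did, and 3 between Sey and Leca2, where 6.69% did. With a term for sex the Sey and Leca2 differences of Gria3 and Grik2 no longer passed (-0.81, adjusted p = 0.141, and 0.70, adjusted p = 0.146). None of the 9 differed between Leca4 and Leca2, where 2.38% of genes did. The change of Gria4 in Sey exceeded that in Leca4 by 0.39 ± 0.15 (adjusted p = 0.0987) and that in Leca2 by 0.43 ± 0.15 (adjusted p = 0.0996), which did not pass. The lines were bred on different strains, and strain and allele cannot be told apart in the comparisons with Sey.

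Markers of cell types moved with the Sey changes. All 6 measured markers of cortical projection neurons fell (Tbr1, Neurod2, Neurod6, Bcl11b, Fezf2 and Sox5), with a summed linear signal of 17759 to 20356 in Sey mutants against 26810 to 28462 in controls. All 6 markers of intermediate progenitors fell as well (4450 to 6444 in mutants against 13345 to 13825 in controls), and Neurod4 was at or below the filter level in the mutants. Of 9 measured markers of GABAergic and ventral cells 8 rose (11005 to 16378 in mutants against 1650 to 2072 in controls, where Dlx6 was at or below the filter level). The remaining marker, Lhx6, went the other way and was not called. Every Sey mutant array lay below every control for it, as for 14.5% of all genes. Pan-neuronal markers moved less, with 1 higher and 5 lower of 10 (29341 to 30999 in mutants against 33239 to 34843 in controls). Of 6 Cajal-Retzius markers 5 rose (3190 to 4956 in mutants against 2487 to 3004 in controls). Among the 4 measured genes listed for diencephalon, Gbx2, Lhx2 and Lhx9 rose and Tcf7l2 fell. Their sum was 7076 to 8708 in mutants against 5513 to 5717 in controls, where Gbx2 was at or below the filter level. Of 8 radial glia markers Sox2 and Sox9 rose, Slc1a3 fell and 5 were not called, and the sums overlapped (29232 to 33072 in mutants against 29973 to 30935 in controls). No marker of microglia, endothelium, meninges or erythroid cells was called in Sey. The part of these cell types in the changes of the glutamate genes was not tested, and in whole tissue fewer cells of a type and less RNA per cell cannot be told apart. In the Leca lines no projection neuron marker was called, the sum being 28245 to 30965 in Leca4 mutants against 28170 to 31045 in controls and 27926 to 31683 in Leca2 mutants against 26847 to 31165 in controls. In Leca4, 2 of 4 microglia markers rose (Csf1r and Cx3cr1). The summed signal of the 4 was 1216 to 1432 in mutants against 965 to 1065 in controls. All 4 had every mutant array above every control, as did 1143 of the 13850 genes tested. Of the intermediate progenitor markers, Neurog1 rose in Leca4, with overlapping sums (15761 to 18597 in mutants against 16169 to 18592 in controls), and Neurod4 and Neurog1 fell in Leca2 (15028 to 16815 in mutants against 17168 to 18084 in controls). Slc1a3 was the 1 radial glia marker called in Leca4, as lower. In Leca2 no radial glia marker was called, but all 8 had a negative change. For 2 of them every mutant array lay below every control (3.34% of all genes). Their sum was 31012 to 33759 in Leca2 mutants against 34387 to 36521 in controls, for all 8 together. No GABAergic or ventral marker was called in either Leca line. In Leca4 8 of 9 had a negative change, and for 2 every mutant array lay below every control (7.03% of all genes). In Leca2 7 were positive and 2 negative. Their sums overlapped (2266 to 3204 in Leca4 mutants against 2617 to 4524 in controls, 1154 to 3236 in Leca2 mutants against 1335 to 2044 in controls). The part of all these markers in the Leca4 and Leca2 values was not tested.

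The genes whose pattern was most like that of a changed gene were found by Pearson's r over the 21 arrays, on values from which each line's control mean was taken. These points share the Sey difference and are given as a description. For Slc17a6 they were Eomes (r = 0.98), Nrn1 (0.98) and Klhl29 (0.97). For Gria3 they were Ppfia2 (0.96), Camk2g (0.95) and Snap25 (0.95). For Gria4 they were Slitrk4 (0.92), Angpt1 (0.89) and Crip2 (0.88), and for Grik2 they were Klf10 (0.91), Nfe2l2 (0.90) and Tex9 (0.89).

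The wider glutamate system was read from 62 other genes, 50 of them measured. In Sey 4 rose and 7 fell (22% called, against 20.2% of all genes), in Leca4 3 rose and 3 fell (12%, against 5.62%), and in Leca2 1 rose (2%, against 0.477%). The median change was -0.05, -0.03 and 0.02 in Sey, Leca4 and Leca2. The other NMDA subunits Grin2d, Grin3a and Grin3b and the kainate subunits Grik1, Grik4 and Grik5 were not called in any line. Grin2c, a mainly cerebellar NMDA subunit, was called lower in Sey (-0.45 ± 0.13, adjusted p = 0.0166), but both groups were under the filter level, at 4.36 in mutants and 4.82 in controls, so no fold is given. The call was lost with only the Sey arrays in the fit and without Sey mutant replicate 1, Sey control replicate 2 or Sey control replicate 3 (adjusted p up to 0.113).

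Of the plasma membrane transporters, Slc1a3, which takes up glutamate into radial glia and astrocytes and stands in the radial glia list too, fell in Sey. It averaged 7.57 ± 0.23 in mutants and 9.004 ± 0.16 in controls (SD, n = 4 and 3), a change of -1.44 ± 0.10 (adjusted p = 7.33e-09). Its 5 probe sets ranged from -1.64 to -0.05, with 4 called. In Leca4 it fell by 0.37 on the log2 scale (adjusted p = 0.0346, not passed under every setting). In Leca2 its change was of like size, at -0.37 ± 0.10, but was not called (adjusted p = 0.164). The 2 Leca lines did not differ in it (-0.003 ± 0.14, adjusted p = 0.996). Slc1a2, the main astrocytic transporter, rose in Leca2, at 9.68 ± 0.21 in mutants and 8.23 ± 0.51 in controls (SD, n = 4 and 3), or 2.74-fold (1.45 ± 0.22, adjusted p = 0.00208). Only 1 of its 3 kept probe sets was called (range -0.05 to 1.45), and with only the Leca2 arrays it narrowly missed the threshold (adjusted p = 0.0546). In Sey it was called at 0.69 ± 0.22 (adjusted p = 0.0351). Its 3 kept probe sets lay between -0.30 and 0.69 in Sey, and none was called over all probe sets. Under other settings the Sey change went down to 0.11 and its adjusted p up to 0.447, so the call was lost under at least 1 of them. The change of Slc1a2 in Leca4 was 0.77 ± 0.22 and narrowly missed the threshold (adjusted p = 0.0508).

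Grid1, a delta receptor subunit that helps to organise synapses, rose in Leca4 and was not called in Sey or Leca2. It averaged 6.996 ± 0.16 in Leca4 mutants and 6.05 ± 0.25 in controls (SD, n = 3 and 4), or 1.93-fold (0.95 ± 0.12, adjusted p = 3.16e-05). Its other kept probe set gave 0.24 and was not called. Dlg2, a postsynaptic scaffold that anchors NMDA receptors, rose in Leca4 by 0.61 ± 0.09 (adjusted p = 0.000217) with both probe sets called. In Sey it fell by 0.33 on the log2 scale (adjusted p = 0.0107, or 0.0649 with a term for sex), with 1 of its 2 probe sets called and the other at -0.04.

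Among AMPA receptor auxiliary subunits and scaffolds in Sey, Cacng5, a transmembrane regulator of AMPA receptors, rose by 0.94 ± 0.16 (adjusted p = 0.000199). Of 10 measured auxiliary subunits of glutamate receptors, 1 was called higher (Cacng5) and 3 lower (Cacng8, Cnih2 and Neto2). That is 40% called, against 20.2% of all genes. Cnih2, which aids AMPA receptor export, fell by 0.49 (adjusted p = 0.000822), and Homer1, which links metabotropic receptors to calcium stores, fell by 0.48 (adjusted p = 0.000251), with 4 of its 5 probe sets called. Dlgap3, a scaffold protein, rose by 0.42 (adjusted p = 0.00714), and Grm4, a presynaptic metabotropic receptor, rose by 0.54 (adjusted p = 0.0124), or 0.31 without Sey control replicate 3 (adjusted p = 0.106). In Leca4, Slc38a1, a glutamine transporter, rose by 0.22 (adjusted p = 0.0351). Camk2a, a synaptic kinase, fell by 0.50 (adjusted p = 0.0306) and Pick1, which moves AMPA receptors, fell by 0.18 (adjusted p = 0.0429). These 3 Leca4 calls were lost under several other settings, and none of their probe sets was called over all probe sets. Camk2a was -0.31 without Leca4 mutant replicate 3 and -0.11 by the mean of its 3 probe sets, 1 of which gave 0.09. Pick1 was -0.11 without Leca4 mutant replicate 2 and -0.00898 with all 129 S6 controls together. Slc38a1 was 0.09 by the mean of its 2 probe sets.

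**Figure D4:**
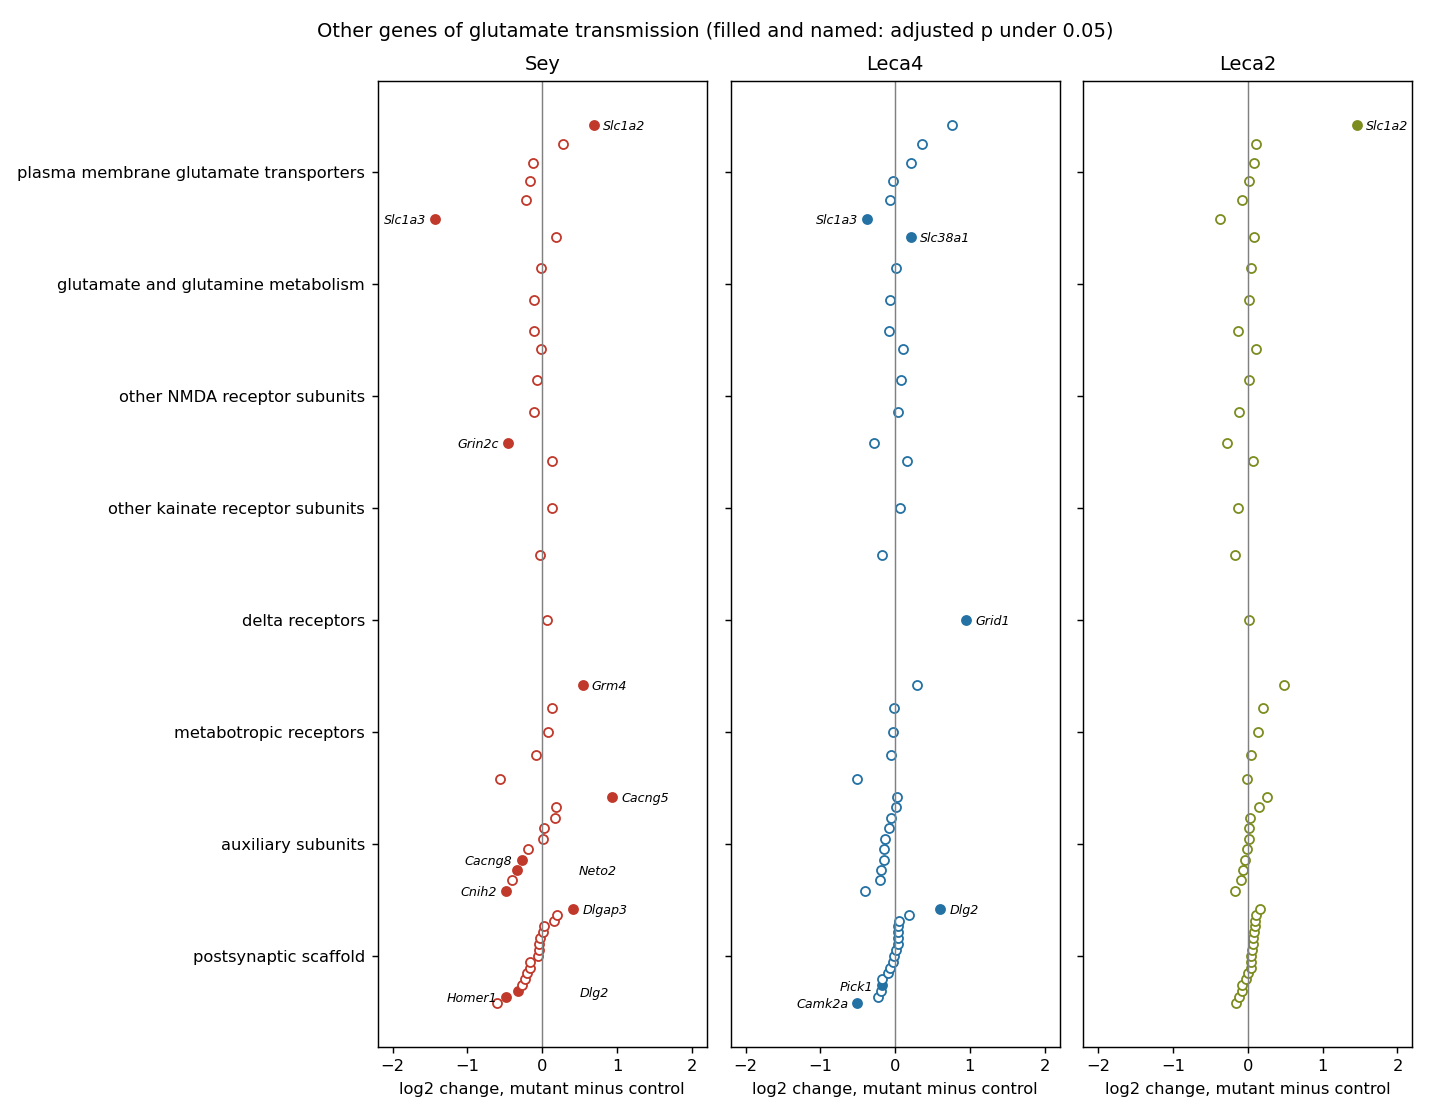
Log2 change, mutant minus littermate control (horizontal axis), of the 50 measured other genes of glutamate transmission in Sey, Leca4 and Leca2, grouped by role. Filled and named points passed an adjusted p under 0.05. There were 11 in Sey, 6 in Leca4 and 1 in Leca2.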

How the data were processed

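Total RNA from 21 samples was hybridized to Affymetrix arrays after extraction with the RNeasy Micro kit and amplification with MessageAmp Premier, per the labels' protocols. The deposited values are log2 expression per probe set, made by the authors with RMA per the submitters' processing notes; no source used here gives its version or settings. Arrays of the same line have nearly the same distribution of values, and the 3 lines differ in it.

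Of 45101 probe sets, 34945 named 1 gene. A probe set was kept if it exceeded, on 3 or more arrays, the array's 40th percentile over non-control probe sets, and the kept probe set with the highest mean stood for its gene. In R 4.3.3, limma 3.58.1 fitted 1 mean for each of the 6 groups over all arrays (15 residual and 3.54 prior degrees of freedom), tested two-sided, with Benjamini-Hochberg adjustment per contrast over 13850 genes. Single probe sets were fitted over all kept or dim ones alike. The pipeline was tested on simulated data. The number of arrays limits the precision.

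All 10 genes were to be described, and of the other glutamate genes the 4 with the smallest p in each direction and line, plus the remaining delta, NMDA and kainate subunits. The 3 most alike genes were named for each changed one. Members, lists and rules were chosen with earlier results of these data known. The other settings tried are a term for sex, a fit of only the groups compared, array weights, other filters, normalizations, variance models and thresholds, pooled controls, single or averaged probe sets, a block of replicate numbers, and leaving out each array.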

Additional observations from a re-analysis of the deposited data

Results flagged for a closer look

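In the Sey mutants, replicate 2 had a Grid1 value of 5.83, while the others lay between 5.651 and 5.656, a gap large for the range of a group of 4. Of 66 groups of arrays examined over 22 genes this was the 1 that stood out, and chance alone picks about 1 in 20. Grid1 was not called in Sey.

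The change differed between lines for several genes by a test of the difference itself (limma, Benjamini-Hochberg adjusted). For Sey minus Leca4, the difference in log2 change was -1.01 for Slc17a6, -1.18 for Gria3, 1.35 for Cacng5, -0.93 for Dlg2, -0.89 for Grid1, -0.45 for Homer1, -1.06 for Slc1a3 and -0.33 for Slc38a1, with adjusted p between 2.03e-05 and 0.0143. For Sey minus Leca2 it was -1.20 for Slc17a6, -1.03 for Gria3, 0.82 for Grik2, -0.45 for Cnih2, -0.40 for Homer1 and -1.07 for Slc1a3, with adjusted p between 4.9e-06 and 0.0486. For Leca4 minus Leca2 it was 0.73 for Dlg2, 0.93 for Grid1 and -0.29 for Pick1, with adjusted p of 0.00232, 0.00337 and 0.0332. Dlg2 was called higher in Leca4 and lower in Sey, but the Sey call rests on 1 of 2 probe sets (the other gave -0.04) and was lost with a term for sex (adjusted p = 0.0649). Homer1 and Slc1a3 differed between Sey and both Leca lines.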

How the results depend on the processing

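The calls of Slc17a6, Gria3, Gria4 and Grik2 in Sey held in all 31 other settings that did not take a single probe set, with log2 changes from -1.26 to -1.11, -1.06 to -0.79, 0.46 to 0.66 and 0.46 to 0.65. Their highest adjusted p was 0.000153, 0.00404, 0.0100 and 0.0362. Leaving out each array kept 2 higher and 2 lower in Sey and 0 in Leca2; it gave 0 to 1 higher in Leca4 (1 without Leca4 mutant replicate 3), 0 to 1 lower in Leca4 (1 without Leca2 control replicate 1, Leca2 control replicate 3 or Leca2 mutant replicate 1) and 0 to 1 differing between Leca4 and Leca2 (1 without Leca2 control replicate 3 or Leca2 mutant replicate 1). With only the groups compared, 4 of the 9 were lower in Sey and 1 in Leca4. At an adjusted p under 0.10, 1 was lower in Leca4, 1 differed between Leca4 and Leca2, as did 1 with array weights, and 3 differed between Sey and Leca4 and 4 between Sey and Leca2, Gria4 being added to both. Leaving out arrays gave 2 to 3 and 3 to 4 for these. With a term for sex, 1 differed between Sey and Leca2. The share of all genes called under these other settings was not counted, so the counts have no background beside them.

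Residuals of same-numbered mutant and control arrays correlated between -0.44 and 0.34. Arrays of unlike number were not compared, so this cannot decide whether the replicate numbers pair the arrays. With the replicate numbers as a block, Slc17a6, Gria3, Gria4 and Grik2 in Sey were -1.18, -0.92, 0.57 and 0.56, and no call of the 9 genes moved. Pick1, Slc1a3 and Slc38a1 in Leca4 were no longer called (-0.17, -0.34 and 0.21). The block also turned the uncalled Leca2 changes of Gria1 and Grik3 to 0.028 and 0.01.

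Among the 9 genes, the called value that reversed was Gria4 in Sey, at -0.077 by a probe set below the filter, and the others that reversed were uncalled. Of the other glutamate genes, called values turned sign on another kept probe set for Slc1a2 in Sey (-0.30) and in Leca2 (-0.05), Camk2a in Leca4 (0.09) and Slc38a1 in Leca4 (-0.03). By other probe sets, Gria4 in Leca2 was -0.033 and -0.089, Grik3 in Sey -0.045, Grin2b in Leca4 -0.15 and Slc17a6 in Leca2 -0.0012. Gria3 in Leca2 was -0.029 with array weights and -0.00790 with a term for sex, and Grin2b in Leca2 was 0.028 with all 129 S6 controls together. Leaving out arrays gave -0.31 to 0.14 for Gria1, -0.16 to 0.22 for Gria3, -0.24 to 0.11 for Grik3 and -0.005 to 0.065 for Slc17a6 in Leca2, -0.0595 to 0.24 for Gria1 and -0.0575 to 0.65 for Grin2b in Leca4, and -0.069 to 0.31 for Grik3 in Sey. The cause was not tested. The stricter filter left no value for Slc17a7, whose signal was close to background, or for Grin2c.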
